A study of Mus musculus with 2 samples.

Results

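The heat shock and chaperonin genes described here are those whose mouse symbol starts with Hsp followed by a letter from a to e, h or a digit, with Dnaja, Dnajb or Dnajc and a digit, or with Cct2 to Cct8, pseudogenes left out. The annotation names 83 such genes, and 78 of the 27435 genes listed in the deposited tables are among them. They were measured in mouse skeletal muscle stem cells (MuSCs), with quiescent and activated cells run together in 1 droplet capture, in the 3′ v2 chemistry of 10x Genomics. The droplets were divided into an aliquot of 10%, read by Illumina short reads and by nanopore long reads, and an aliquot of 90%, read by short reads alone. All mice were Pax7creERT2 R26-eYFPfl/fl on C57BL6, in which a Cre recombinase driven by the Pax7 gene turns on YFP once tamoxifen is given, so the YFP sort rests on Pax7 activity at that time. At an age of 3 months each mouse received 100 µL of tamoxifen at 20 mg/ml a day over 5 days, with a wait of 2 weeks afterwards. Quiescent MuSCs were taken from muscle without injury. Activated MuSCs were taken 72 h after 40 µL of 1.2% barium chloride, which destroys muscle fibres, had been injected into the lower hindlimb. The number of mice is not given in the sources used here.

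Heat shock proteins are chaperones, which hold, fold or unfold other proteins. The HSP70 family binds short hydrophobic stretches and is driven by J-domain proteins of the Dnaj families, HSP90 acts later on kinases and receptors, the small HspB proteins hold unfolded protein without using ATP, and the ring of Cct subunits (with Tcp1) folds actin and tubulin. Some of these genes are switched on by heat shock factor 1 when protein unfolds or when tissue is handled, while others are expressed at all times or answer to unfolded protein in the endoplasmic reticulum (ER).

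No label gives the origin of a cell, so barcodes were compared by depth. Shallow barcodes had 3000 to 15000 short-read UMIs and no UMI of the cell cycle genes Rrm2, Top2a or Cdk1, and deep barcodes had at least 20000. The 10% aliquot gave 157 shallow and 79 deep barcodes with medians of 6729 and 65499 UMIs. The 90% aliquot gave 1243 shallow and 606 deep barcodes with medians of 4680 and 47106 UMIs. The aliquots cannot be taken as separate cells: 634 barcodes stood in both gene tables, among them all 236 barcodes used in the 10% aliquot. The profile of a barcode correlated with that of the same barcode in the other table at a median r of 0.934 over 20506 genes, against 0.666 for different barcodes. Whether they are the same cells was not tested. Without the shared barcodes the 90% aliquot kept 1000 shallow and 399 deep barcodes, called the separate 90% barcodes here. They come from the same capture, so there were no replicates and no test was run. Levels are UMIs of a gene scaled to 1000000 UMIs of all barcodes of a group together (CPM), so that a gene is lower where others take more of the UMIs. A gene was compared if it had at least 50 UMIs over both groups, and a difference of at least 2-fold was counted. The 95% intervals given are exact and cover counting error only.

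The groups differed in much more than chaperones. Quiescence markers were higher in shallow barcodes, with 530.3 against 49.8 CPM for 8 genes in the 10% aliquot and 638.3 against 44.3 CPM in the separate 90% barcodes, and Mki67, a proliferation marker, was at 2.58 against 22.1 CPM in the latter. Myod1 and Myf5, from the list of 6 activation markers, went against that order and were higher in shallow barcodes, Myod1 with 1037 against 212 CPM. Of the 6, 3 were at least 2-fold lower in the separate 90% barcodes, where Myog was at 47.1 against 73.1 CPM, and 4 in the 10% aliquot. The 20 immediate-early genes summed to 4719 against 752 CPM in the 10% aliquot and 6064 against 769 CPM in the separate 90% barcodes, where 18 of 20 were at least 2-fold higher. Immune markers (7 genes) were at 347 against 83.3 CPM in the 10% aliquot and 211 against 5.36 CPM in the separate 90% barcodes, where Lyz2 stood at 114 against 0.920 CPM and Tyrobp at 45.7 against 0.433 CPM, although Lyz2 was at 8.97 against 27.3 CPM in the 10% aliquot. Ptprc had 0 shallow UMIs in both sets and 1 and 3 deep ones. Cd74 alone was at 235 against 1.18 CPM in the 10% aliquot and at 3.38 against 1.14 CPM in the separate 90% barcodes. Few shallow barcodes held 2 or more UMIs of immune markers, 1 of 157 in the 10% aliquot and 10 of 1243 in the whole 90% aliquot. Among deep barcodes 5 of 79 and 24 of 606 did. Fibro-adipogenic markers (5 genes) were at 181 against 33.9 and at 310.4 against 25.2 CPM. Most of this was Col3a1, at 148 against 28.2 and at 226 against 24.3 CPM, and Dpt was also higher in both sets. Dcn was at 0.897 against 4.51 CPM in the 10% aliquot and at 31.2 against 0.704 CPM in the separate 90% barcodes. Pdgfra had 0 shallow UMIs in both sets and 2 and 1 deep ones. Lum had 0 and 3 shallow and 1 and 0 deep UMIs. Mitochondrial transcripts made up 1.37% and 1.26% of UMIs in the separate 90% barcodes. The part that these differences have in the results below was not tested.

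Of the members, 55 could be compared in the 10% aliquot, 68 in the 90% aliquot and 65 in the separate 90% barcodes. In the 10% aliquot 10 members were at least 2-fold higher in shallow barcodes (18.2%, against 14.2% of all genes compared) and 15 at least 2-fold lower (27.3%, against 32.5%). In the 90% aliquot 14 were higher (20.6%, against 17.3%) and 20 lower (29.4%, against 30.8%). In the separate 90% barcodes 16 were higher (24.6%, against 17.1%) and 20 lower (30.8%, against 31.2%). The share of lower members was thus near or below that of all genes. The share of higher members was somewhat above it, but not at a minimum of 10 UMIs in the 90% aliquot (14 of 70, 20%, against 20.8%). The median member (log2 ratio of −0.18, −0.33 and −0.37) stood near the median of all genes (−0.37, −0.31 and −0.32). Centred on the median of all genes, 15 members were higher and 10 lower in the 10% aliquot (27.3% and 18.2%, against 20.7% and 23.8% of all genes). In the 90% aliquot 18 and 15 were (26.5% and 22.1%, against 22.5% and 23.4%). All 10 members higher in the 10% aliquot were also higher in the separate 90% barcodes, as were 14 of the 15 lower members. Of the members listed in the 90% aliquot, 10 had too few UMIs to be compared: Cct6b, Dnajb13, Dnajc6, Dnajc22, Dnajc28, Dnajc5g, Hspa12b, Hspa1l, Hspb3 and Hspb7.

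**Figure D1:**
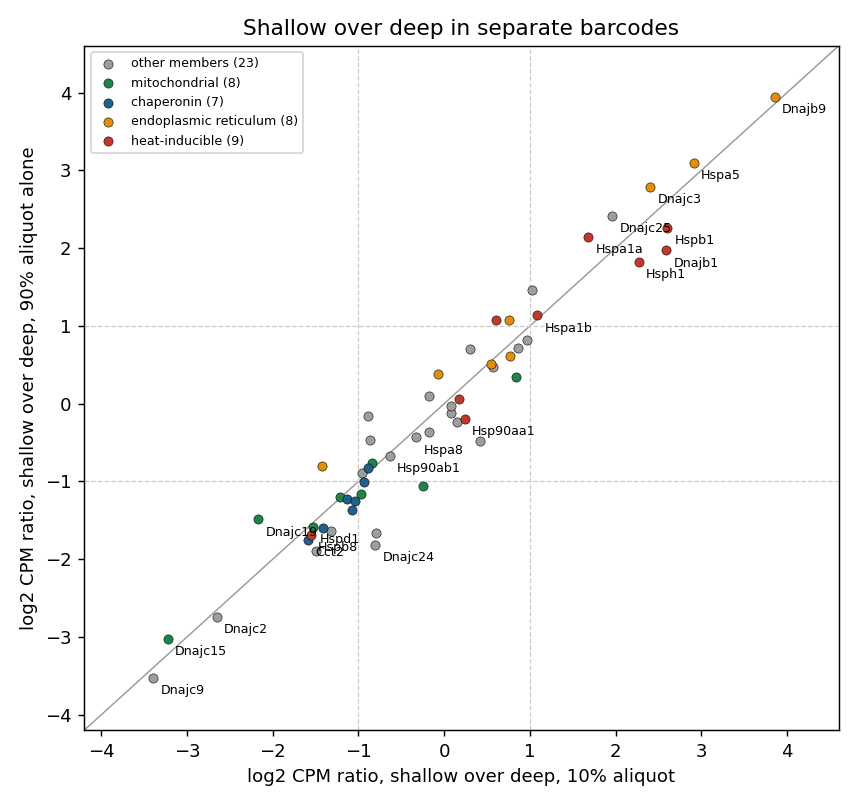
Log2 ratio of CPM in shallow over deep barcodes for the 55 members compared in both sets, in the 10% aliquot (horizontal axis) and in the separate 90% barcodes (vertical axis); each point is a gene, dashed lines mark 2-fold and the grey line equal ratios. Points lie along the diagonal, with Dnajb9, Hspa5 and Dnajc3 at the upper right and Dnajc9, Dnajc15 and Dnajc2 at the lower left.

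Inducible and constitutive members differed. Of 9 heat-inducible members, 5 in the 10% aliquot and 6 in the separate 90% barcodes were at least 2-fold higher in shallow barcodes and 1 was lower in both. Of 13 constitutive cytosolic members, none was higher and 7 and 8 were lower. The median log2 ratio was 1.08 for inducible and −1.04 for constitutive members in the 10% aliquot, 1.16 and −1.24 in the 90% aliquot, and 1.13 and −1.23 in the separate 90% barcodes, a difference of 2.12, 2.40 and 2.37. Since 7 of the 13 constitutive members are chaperonin subunits, their median is largely that of the chaperonin. ER members had a median of 0.76 in the 10% aliquot and 0.85 in the separate 90% barcodes, and mitochondrial members −1.10 and −1.18.

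Promoters (250 bases before to 50 after a start, from RefSeq on GRCm38.p6) were searched on both strands for the heat shock element GAANNTTC, which holds a pair of the units bound by heat shock factor 1. Of the 9 inducible members, 8 had a promoter in the table and 6 of these held the element (Dnaja1, Hspa1a, Hspa1b, Hspb1, Hspb8 and Hsph1), which is 7 of their 13 promoters (53.8%) against 7.86% of all 32851 promoters. Of the constitutive members 10 were in the table, and the promoter of Cct2 was the 1 match among their 13 promoters. None of 7 ER promoters held it. A longer heat shock element of 3 units in a row occurred in 0.603% of all promoters and, among members of these lists, in those of Hsph1, Hspd1 and Hspe1. The ER stress element, a CCAAT and a CCACG box with a fixed gap, added after the levels had been seen, occurred in 0.119% of all promoters and in 3 of 7 ER promoters, those of Hspa5, Dnajc3 and Hsp90b1. A match is a string of letters and not a shown binding site. The Hsph1 promoters counted overlap and hold the same match. Dnajb1, with ratios above those of Hsph1 in both sets (values below), had no heat shock element in either of its promoters. Among the inducible members that hold the element, Hspb8 was lower in shallow barcodes of both sets and Dnaja1 near equal. Dnajb9, with ratios above those of Hspa5 and Dnajc3, had no ER stress element in its promoter. The promoters below belong to 3 inducible genes that hold the element and were at least 2-fold higher, to a mitochondrial gene that holds the longer element and yet was lower in shallow barcodes, and to a pair of ER genes. Each is written 5′ to 3′ on the strand of its gene, with the heat shock element, its longer form or, in Hspa5 and Dnajc3, the ER stress element in capitals.
Hspa1a (chr17:34972107-34972406, minus strand): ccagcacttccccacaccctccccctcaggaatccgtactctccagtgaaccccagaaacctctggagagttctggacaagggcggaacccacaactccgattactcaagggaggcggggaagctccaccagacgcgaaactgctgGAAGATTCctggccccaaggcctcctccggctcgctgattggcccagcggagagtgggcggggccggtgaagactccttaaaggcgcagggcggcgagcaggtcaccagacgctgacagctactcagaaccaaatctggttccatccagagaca
Hspb1 (chr5:135887669-135887968, plus strand): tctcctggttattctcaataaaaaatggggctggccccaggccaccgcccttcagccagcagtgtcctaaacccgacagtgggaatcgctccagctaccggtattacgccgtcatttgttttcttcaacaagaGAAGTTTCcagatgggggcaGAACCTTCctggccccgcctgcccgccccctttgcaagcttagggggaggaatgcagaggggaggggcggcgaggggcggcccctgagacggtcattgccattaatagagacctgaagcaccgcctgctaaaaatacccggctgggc
Hsph1 (chr5:149636266-149636565, minus strand): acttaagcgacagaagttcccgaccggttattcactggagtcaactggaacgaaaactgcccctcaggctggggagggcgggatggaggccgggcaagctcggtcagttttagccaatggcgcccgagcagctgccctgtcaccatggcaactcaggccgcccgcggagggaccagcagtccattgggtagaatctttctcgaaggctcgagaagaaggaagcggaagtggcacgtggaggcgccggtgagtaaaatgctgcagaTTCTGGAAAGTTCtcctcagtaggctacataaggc
Hspe1 (chr1:55087898-55088197, plus strand): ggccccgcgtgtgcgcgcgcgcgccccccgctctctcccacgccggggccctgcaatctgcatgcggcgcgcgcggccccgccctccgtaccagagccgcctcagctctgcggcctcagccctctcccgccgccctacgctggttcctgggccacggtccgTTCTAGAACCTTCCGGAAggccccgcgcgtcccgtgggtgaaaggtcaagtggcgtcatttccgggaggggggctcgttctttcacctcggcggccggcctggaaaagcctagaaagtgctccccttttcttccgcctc
Hspa5 (chr2:34771840-34772139, plus strand): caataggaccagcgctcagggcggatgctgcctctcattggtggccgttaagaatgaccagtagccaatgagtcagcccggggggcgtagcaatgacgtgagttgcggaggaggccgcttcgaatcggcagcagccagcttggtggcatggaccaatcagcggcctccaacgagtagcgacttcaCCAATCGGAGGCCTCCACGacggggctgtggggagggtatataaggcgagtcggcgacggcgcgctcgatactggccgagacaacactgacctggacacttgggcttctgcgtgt
Dnajc3 (chr14:118937682-118937981, plus strand): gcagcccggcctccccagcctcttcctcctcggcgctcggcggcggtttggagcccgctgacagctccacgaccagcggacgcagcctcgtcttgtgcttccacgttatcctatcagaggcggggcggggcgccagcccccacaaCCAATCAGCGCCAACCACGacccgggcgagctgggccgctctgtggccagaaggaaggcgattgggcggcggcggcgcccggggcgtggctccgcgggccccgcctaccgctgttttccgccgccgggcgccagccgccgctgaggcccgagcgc

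Among the cytosolic HSP70 genes the inducible and the constitutive ones stood on opposite sides. Hspa1a (chr17:34969190-34972156), the classical heat-induced HSP70 and the owner of the first promoter above, was at 170.5 CPM in shallow and 53.1 CPM in deep barcodes of the 10% aliquot, a ratio of 3.21 (2.65 to 3.88). In the separate 90% barcodes it was at 275 and 62.0 CPM, a ratio of 4.43 (4.09 to 4.797). Its neighbour Hspa1b was at 51.1 and 24.1 CPM and at 37.6 and 17.1 CPM, ratios of 2.12 and 2.20. The coding sequences of the pair are 99.6% identical over 1926 bases, so the split of reads between them is uncertain. Hspa8, the HSP70 of unstressed cells, was at 536 and 672 CPM in the 10% aliquot and 763 and 1031 CPM in the separate 90% barcodes, 1.25-fold and 1.35-fold lower. Hspa4, an HSP110 that swaps nucleotides on HSP70, was 1.13-fold and 1.29-fold lower, while its inducible relative Hsph1 was at 215 and 44.7 CPM and at 205 and 57.9 CPM, 4.82-fold and 3.55-fold higher. Hspa14, a ribosome-associated HSP70, was 2.83-fold and 3.71-fold lower. Its gene overlaps Gm45902 on the same strand over 8264 of 23965 bases, so its count is uncertain.

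The HSP90 pair showed no large change. Hsp90ab1, the constitutive form, was at 1584 and 2461 CPM in the 10% aliquot and at 1443 and 2297 CPM in the separate 90% barcodes, 1.55-fold and 1.59-fold lower in shallow barcodes. Hsp90aa1, the inducible form, was at 774 and 656 CPM in the 10% aliquot and at 628 and 720 CPM in the separate 90% barcodes. Its ratio was thus above 1 in the former (1.18, 1.09 to 1.27) and below 1 in the latter (0.872, 0.838 to 0.906), and the intervals did not overlap.

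Inducible J-domain proteins and the small heat shock protein Hspb1 made up the rest of the higher inducible genes. Dnajb1, the main HSP70 partner under stress, was at 291 and 48.2 CPM in the 10% aliquot and at 265 and 67.5 CPM in the separate 90% barcodes, ratios of 6.03 (5.09 to 7.14) and 3.92 (3.63 to 4.24). Hspb1, the mouse HSP25, was at 790.5 and 130.4 CPM and at 837 and 175 CPM, ratios of 6.06 (5.47 to 6.71) and 4.79 (4.57 to 5.02). The pseudogene Hsp25-ps1 resembles it, so some reads may be misplaced. Dnajb4 had ratios of 1.53 and 2.10, and Dnaja1 was near equal with 1.13 and 1.04. Hspb8, which works with Bag3 in the clearing of damaged filaments, went the other way at 13.5 and 39.6 CPM and at 12.3 and 39.8 CPM, 2.94-fold and 3.23-fold lower. Inducible genes as a list were therefore not uniform: Hsp90aa1 and Dnaja1 hardly differed, and Hspb8 was lower in each set.

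Among the other cytosolic and nuclear J-domain proteins a few were lower by a wide margin. Dnajc9, a histone chaperone, was at 6.28 and 66.1 CPM in the 10% aliquot and at 6.36 and 73.1 CPM in the separate 90% barcodes, 10.52-fold and 11.5-fold lower. Dnajc2, which binds the ribosome, was at 20.6 and 129.6 CPM and at 26.6 and 178 CPM, 6.28-fold and 6.70-fold lower. Dnajc7 was 2.49-fold and 3.11-fold lower, and Dnaja2, a constitutive HSP70 partner, was near equal with ratios of 1.06 and 0.921. Dnajb2 was higher, with ratios of 2.03 and 2.75, and Dnajc25 with 3.89 and 5.34. Dnajc25 overlaps the gene Gm20503 on the same strand over 22364 of its 30512 bases, so its counts are uncertain. Dnaja4, with 18 and 30 UMIs, was too thin to be compared in the 10% aliquot and was at 29.2 and 6.44 CPM in the separate 90% barcodes.

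The remaining members are named after their values were seen. Dnajb5 was, in the separate 90% barcodes, at 15.5 and 1.95 CPM, Dnajc27 at 6.76 and 2.33 CPM and Hspa2, an HSP70 best known from testis, at 7.95 and 3.41 CPM, all at least 2-fold higher in shallow barcodes and too thin to be compared in the 10% aliquot. Lower by at least 2-fold there were Hspbp1, which releases nucleotide from HSP70, at 8.35 and 26.5 CPM, Dnajc24, at 5.56 and 19.6 CPM, and Hspb6 at 1.79 and 4.11 CPM. In the 10% aliquot Hspbp1 and Dnajc24 were 1.73-fold and 1.75-fold lower, on 15 and 9 shallow UMIs. Dnajb6, which holds back aggregation, had ratios of 1.95 and 1.76, Dnajc5, of synaptic and secretory vesicles, 1.82 and 1.64, and Dnajc21, of ribosome assembly, 1.23 and 1.63. Dnajc8 was 1.94-fold and 1.86-fold lower. Hspa4l, Hspb11, Dnajc4, Dnajc13, Dnajc14, Dnajb12, Hspb2, Dnaja3 and, in the separate 90% barcodes alone, Dnajb14, Dnajc12, Dnajc17, Dnajc18 and Hspbap1 also stayed within 2-fold. Only the whole 90% aliquot had enough UMIs for Dnajb3, 1.61-fold lower, Hspa12a, 1.49-fold lower, and Dnajc16, with 0 shallow and 50 deep UMIs.

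The chaperonin subunits moved together. All 7 Cct genes were lower in shallow barcodes in each set, 5 of them at least 2-fold in the 10% and in the 90% aliquot and 6 in the separate 90% barcodes. Their sum was 751.0 CPM in shallow and 1674 CPM in deep barcodes of the 10% aliquot, and 811 and 1987 CPM in the separate 90% barcodes. Cct2 was lowest relative to deep barcodes, with 94.2 against 283 CPM and 94.4 against 319 CPM, 3.01-fold (2.46 to 3.70) and 3.38-fold lower. Cct5 differed least, with 128 against 237 CPM and 140.1 against 249.6 CPM, 1.85-fold and 1.78-fold lower. Cct8 was 2.67-fold and 3.03-fold lower, Cct6a 2.10-fold and 2.57-fold, Cct4 2.19-fold and 2.35-fold, Cct7 2.06-fold and 2.38-fold, and Cct3 1.92-fold and 2.01-fold. Tcp1, the eighth subunit of the ring and outside the symbol rule, was at 120.2 against 276 CPM and at 123 against 317 CPM.

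The largest differences upwards were in the ER. Hspa5 (BiP, the HSP70 of the ER lumen) was at 1694 and 225 CPM in the 10% aliquot, a ratio of 7.52 (6.98 to 8.10). The separate 90% barcodes gave 1934 and 225 CPM, a ratio of 8.58 (8.27 to 8.90). Dnajb9, an ER J-domain protein that restrains the stress sensor IRE1, was at 265 and 18.2 CPM and at 475 and 30.8 CPM, ratios of 14.5 (11.5 to 18.5) and 15.4 (14.0 to 16.9). Dnajc3, which limits the ER stress kinase PERK, had ratios of 5.30 and 6.93. The other ER members differed less. Hsp90b1 (GRP94) had ratios of 1.45 and 1.43 although its promoter holds the ER stress element as well, Dnajb11 had 1.70 and 1.53, and Dnajc1 had 1.69 and 2.12. Hspa13 was near equal in the 10% aliquot, on 10 and 48 UMIs. Dnajc10, an ER reductase, was 2.68-fold lower on 8 and 98 UMIs in the 10% aliquot and 1.74-fold lower in the separate 90% barcodes.

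Mitochondrial members were mostly lower. Hspd1 (HSP60) was at 154 and 446 CPM in the 10% aliquot and at 172 and 515 CPM in the separate 90% barcodes, 2.89-fold and 3.00-fold lower. Its partner Hspe1 (HSP10), whose gene lies head to head with Hspd1 on chromosome 1, was at 492 and 1142 CPM and at 440 and 1006 CPM, 2.32-fold and 2.29-fold lower. Both share the stretch with the longer heat shock element printed above, and both were on the opposite side from Hspa1a, Hspb1 and Hsph1. Dnajc15, linked to the import motor of mitochondria, was 9.37-fold and 8.14-fold lower, and Dnajc19, also of the import motor, 4.50-fold and 2.81-fold. Hspa9, the HSP70 of the matrix, was 1.97-fold and 2.24-fold lower. Dnajc30 was the 1 mitochondrial member with a ratio above 1 in both sets, at 1.79 on 18 and 46 UMIs and at 1.27, an interval of 0.941 to 1.70. Dnajc11, of the inner membrane contact sites, was 1.19-fold and 2.07-fold lower.

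Partners of the members outside the symbol rule were looked at as a list of 39 co-chaperones and regulators. In the 10% aliquot 4 of 36 compared were at least 2-fold higher (11.1%, against 14.2% of all genes) and 11 lower (30.6%, against 32.5%). Of the 39 compared in the separate 90% barcodes 6 were higher (15.4%, against 17.1%) and 15 lower (38.5%, against 31.2%). Higher in each set were Cryab, a small heat shock protein by structure, with 1112 against 135 CPM and 1021 against 94.0 CPM, Bag3 with 83.4 against 19.0 and 104 against 23.2 CPM, Bag5 and the HSP90 cofactor Fkbp5. Among those lower in the 10% and the 90% aliquot were Tcp1, Bag1, Fkbp4, Sgta, Ppid and the prefoldins Pfdn1, Pfdn4 and Pfdn6, subunits of the complex that passes actin and tubulin to the chaperonin. The other prefoldin subunits of the list did not share this, with ratios of 1.64 and 1.37 for Pfdn2, 1.67 and 1.77 for Pfdn5, and 0.455 and 0.781 for Vbp1 in the 10% aliquot and the separate 90% barcodes. Hsf1, the heat shock factor itself, was at 39.5 and 24.5 CPM and at 40.9 and 23.2 CPM.

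Inducible genes differed in how many barcodes carried their level. In the separate 90% barcodes Hspa1a had a UMI in 130 of 1000 shallow barcodes, the median was 0 CPM, the highest barcode held 41272 CPM, and the 100 barcodes with most Hspa1a held 97.8% of its UMIs. In deep barcodes it had a UMI in 167 of 399, and the highest held 2341 CPM. After each barcode was thinned to 3000 UMIs, Hspa1a was seen in 9.90% of shallow and 12.03% of deep separate 90% barcodes and in 12.7% and 8.86% in the 10% aliquot, so the shares had no common order, whereas the summed level was higher in shallow barcodes of both sets. With the 5% of barcodes with the highest CPM of the gene left out of each group, a setting chosen after seeing the data, the log2 ratio of Hspa1a in the 90% aliquot was −0.0101 in place of 2.25. In the 10% aliquot it was 0.999, with 37.8 against 18.9 CPM. The setting takes most from genes seen in few shallow barcodes, and Hspa1a was seen in 13.8% of shallow and 40.8% of deep barcodes of the 90% aliquot. Under the same setting Hspb1 was still 3.90-fold, Hsph1 2.72-fold and Dnajb1 1.97-fold higher in shallow barcodes of the 90% aliquot. Hspb1 had a UMI in 499 of 1000 shallow and 324 of 399 deep barcodes, and after thinning in 42.6% and 25.1%. Dnajb1 was seen in 22.3% and 16.5% and Hsph1 in 30.7% and 17.8% after thinning.

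Barcodes with at least 10000 CPM of the 9 inducible genes together were counted after the data were seen, so their inducible levels are high by construction. There were 33 among the 1000 shallow and 1 among the 399 deep separate 90% barcodes, and 7 and 0 in the 10% aliquot. The 33 shallow barcodes had 3220 to 9964 UMIs with a median of 4739, against 4545 for the others. They held 81.4% of the Hspa1a UMIs of the shallow group. Hspa1a was at 6729 CPM in them and at 52.8 CPM in the other 967 shallow barcodes, beside 62.0 CPM in deep ones. Hspb1 was different, with 10731 CPM in them but still 496.8 CPM in the other shallow barcodes, as was Dnajb1 with 3990 and 136.9 CPM. The ER members summed to 3045 CPM in them and 3300 CPM in the others, but to 1365 and 2839 CPM in the 7 and the other 150 shallow barcodes of the 10% aliquot. In the separate 90% barcodes the chaperonin genes summed to 664 and 816 CPM and the immediate-early genes to 16952 and 5689 CPM. Mitochondrial transcripts were at 1.16% and 1.38%.

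ER and constitutive members were spread broadly. Hspa5 had a UMI in 911 of 1000 shallow barcodes, with a median of 1484 CPM against 176 CPM in deep ones, and the 100 barcodes with most Hspa5 held 32.0% of its UMIs. After thinning it was seen in 86.9% of shallow and 41.4% of deep barcodes. Dnajb9 was seen in 57.8% and 7.52%. Hsp90ab1 had medians of 1191 and 2282 CPM. The 7 chaperonin genes together had medians of 692 and 1745 CPM, and Cct2 was seen in 18.7% and 53.6% after thinning.

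**Figure D2:**
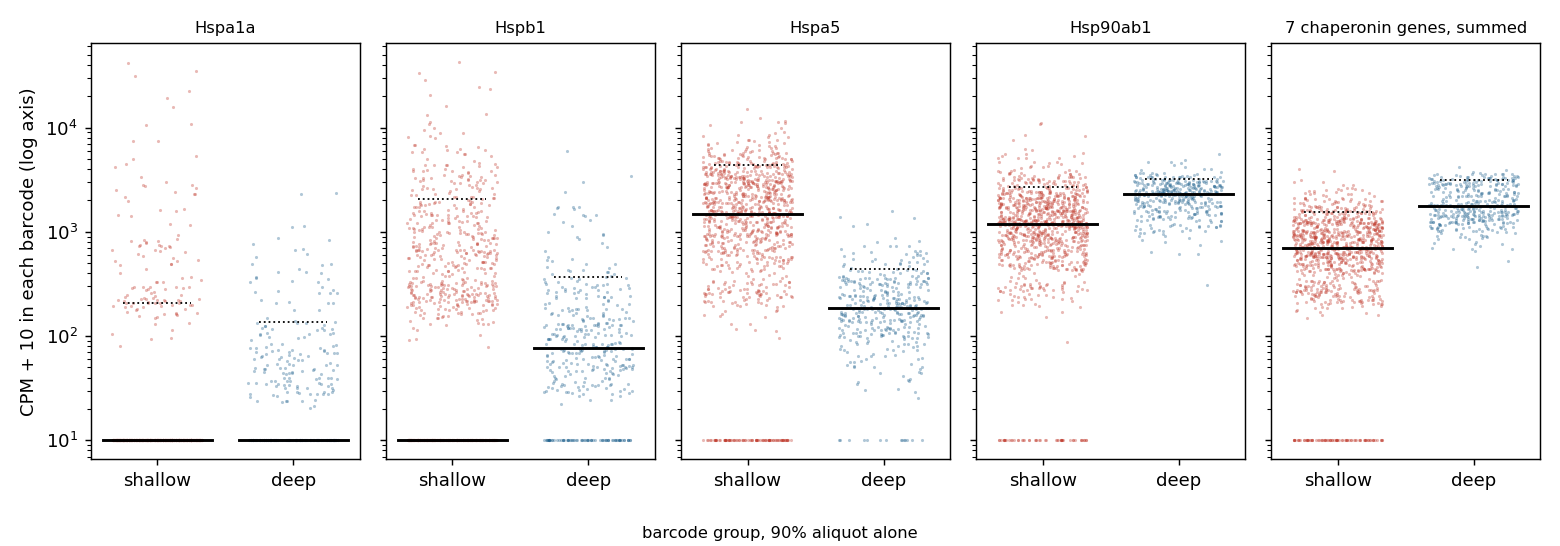
CPM in each of the 1000 shallow and 399 deep separate 90% barcodes, with 10 added so that 0 can be drawn on the log axis; each point is a barcode, the solid line the median and the dotted line the 90th percentile. Hspa1a has a median of 0 in both groups and a few shallow barcodes above 10000 CPM. For Hspa5 most of the shallow cloud lies above the deep median, with medians of 1484 and 176 CPM, and its lower part overlaps the deep cloud.

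Pooled levels differed between depth bins within the groups, and barcodes under 500 UMIs, which may hold little but free RNA, were used as a reference. Across single barcodes the sums of the lists correlated only weakly with total UMIs. In shallow separate 90% barcodes the Spearman correlation was 0.008 for inducible, 0.041 for ER and 0.106 for chaperonin genes. In deep ones it was 0.138, −0.025 and 0.187. In the separate 90% barcodes under 500 UMIs, Hspa1a was at 290.2 CPM (188 to 428) and in those of 500 to 3000 UMIs at 672 CPM. It was then at 289.6 CPM in barcodes of 3000 to 5000, 331 CPM in those of 5000 to 8000 and 46.9 CPM in those of 8000 to 15000 UMIs. The last of these bins held 62 barcodes, against 621 and 317 in the others. The values of the first 2 shallow bins lay within the interval of barcodes under 500 UMIs. In the 10% aliquot barcodes under 500 UMIs were at 80.5 CPM (21.9 to 206), on 4 UMIs, and the shallow bins at 332, 87.7 and 207 CPM. For Hspa5 the order was different, with 453 CPM under 500 UMIs, 2030 and 2025 CPM in the first bins of the shallow group and 1287 CPM in the last, then 247, 228 and 165 CPM in the deep bins. Hspb1 was at 429 CPM under 500 UMIs, 895 and 929 CPM in the next bins of the shallow group and 336 CPM in that of 8000 to 15000, close to the 308 CPM of barcodes of 20000 to 40000 UMIs. The sum of chaperonin genes was at 1056 CPM under 500 UMIs, 746 to 999 CPM across the shallow bins and 1811 to 2047 CPM across the deep ones.

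**Figure D3:**
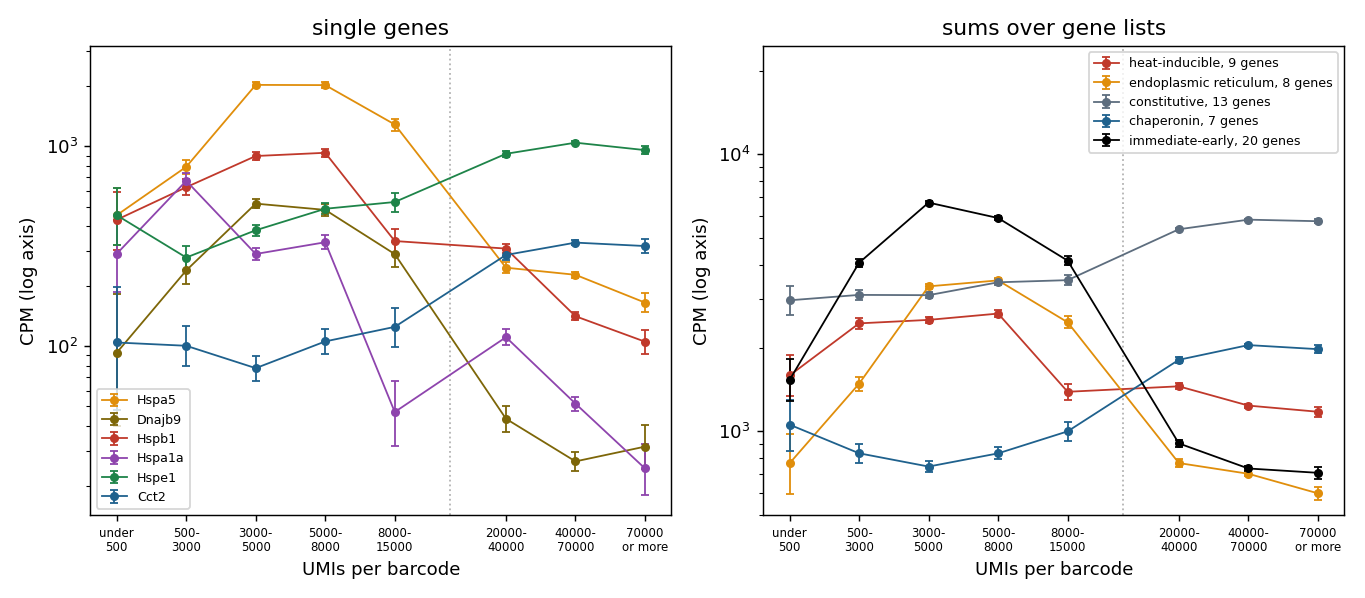
CPM (log axis) of single members (left) and of gene lists (right) by UMIs per barcode in the separate 90% barcodes, with exact counting intervals as bars; the dotted line separates shallow and deep barcodes, and those under 3000 UMIs belong to neither group. Hspa5 and the ER sum peak between 3000 and 8000 UMIs, Hspa1a peaks at 672 CPM below 3000 UMIs, and the chaperonin sum is highest in the deep bins.

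Among deep barcodes, where depth allows it, the genes most like Hspa1a were listed by Spearman correlation of CPM over the 606 deep barcodes of the 90% aliquot, among 8210 genes. The correlations share library and depth and are given as a description. Hspa1b came first with 0.586 (0.581 in the separate 90% barcodes and 0.637 in the 79 deep barcodes of the 10% aliquot), followed by Fosb with 0.438, Hspb1 with 0.431, Atf3, Hsp25-ps1, Klf6, Jun, Klf4 and Ppp1r15a with 0.355. Of these genes, Hspa1b and Hspb1 are members, and Fosb, Atf3, Klf6, Jun and Klf4 are on the immediate-early list. Dnajb1 ranked 18 with 0.296 and Hsph1 136 with 0.167. Hspa5 stood at −0.0004 and Cct2 at −0.15. In the 10% aliquot the genes from Fosb to Ppp1r15a in this order all stood lower, between 0.237 for Fosb and 0.389 for Klf6, with 0.264 for Hspb1.

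Long reads were taken from the same 157 and 79 barcodes of the 10% aliquot. Of the members 66 were listed and 62 compared, with 14 at least 2-fold higher in shallow barcodes (22.6%, against 17.9% of all genes compared) and 16 lower (25.8%, against 28.3%). Dnajb9 was 12.6-fold, Hspa5 6.59-fold, Hsph1 4.65-fold and Hspb1 4.21-fold higher. Dnajc9 was 5.73-fold, Dnajc15 4.53-fold and Dnajc2 4.198-fold lower, each less than the 10.52-fold, 9.37-fold and 6.28-fold of the short reads. Of 53 members compared by both, 8 were higher by both methods (9 by each) and 12 were lower by both (15 by short and 14 by long reads). The median log2 ratio was 0.88 for inducible and −0.88 for constitutive members, a difference of 1.76 where the short reads gave 2.12. The HSP70 cluster on chromosome 17 was counted differently. Hspa1l (chr17:34972703-34979285), which is read on the other strand next to Hspa1a and shares 83.3% of its coding sequence, had 207 and 272 long-read UMIs but was not listed in the short-read table of that aliquot, and Hspa1b had no isoform in the long-read table. Levels of these genes therefore rest on how reads were assigned.

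**Figure D4:**
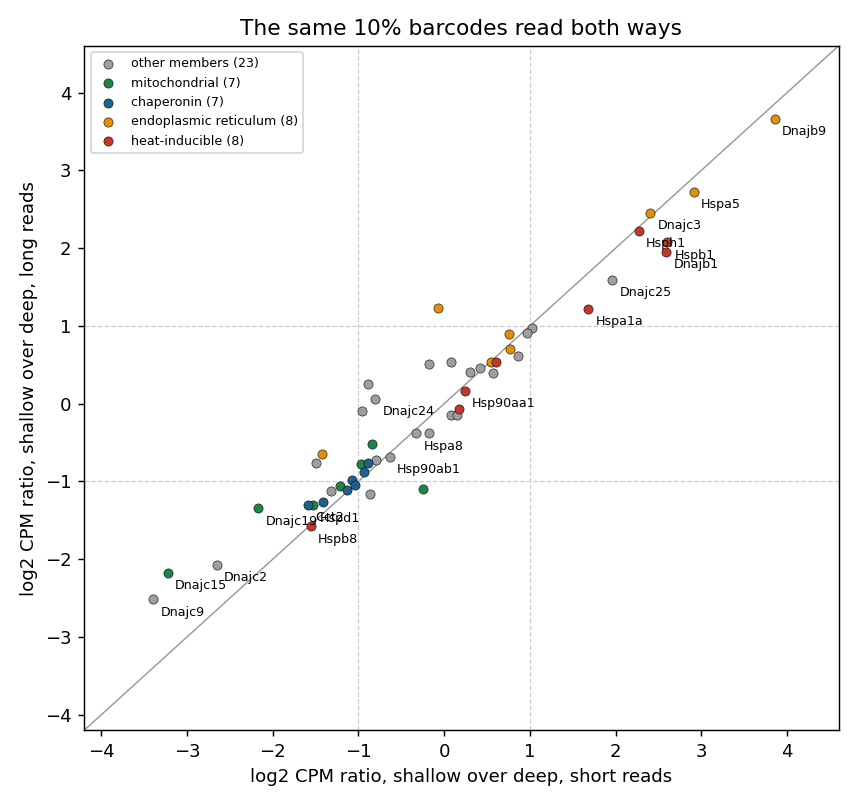
Log2 ratio of CPM in shallow over deep barcodes of the 10% aliquot from short reads (horizontal axis) and long reads (vertical axis) for the 53 members compared in both; each point is a gene, dashed lines mark 2-fold and the grey line equal ratios. Dnajc9, Dnajc15 and Dnajc2, at the lower left, lie above the line since their long-read difference is smaller, and Dnajb9 and Hspa5 are at the upper right by both methods.

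Isoform shares could be compared for 40 members with at least 50 long-read UMIs in each group. For 6 of them (15.0%, against 17.5% of all genes compared) an isoform stood 20 or more points of its gene's UMIs apart between the groups. In Hspa14 the reference isoform ENSMUST00000027961.11 took 47.4% of 76 UMIs in shallow and 78.9% of 431 UMIs in deep barcodes, while an unnamed isoform from 3495211 to 3512773 on chromosome 2, whose 3′ end lies in an intron, took 19 of the 76 and 2 of the 431. In Dnajc19 the isoform ENSMUST00000108195.9 took 53.9% and 84.9%, in Dnajc2 ENSMUST00000030771.11 took 46.4% and 73.6%, and in Dnajc8, a splicing-associated J-domain protein, ENSMUST00000094657.9 took 42.9% and 69.9%. In these genes the main reference isoform was the lower one in shallow barcodes.

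Hsph1 and Dnaja4 differed in isoforms without a reference name. In Hsph1 (minus strand of chromosome 5) isoforms ending at 149616544 took 30.02% of 603 shallow and 8.53% of 434 deep UMIs, and those ending at 149616845 took 52.7% and 68.9%. These ends lie 2368 and 2669 bases before the most distal end counted, and both are in an annotated exon. In Dnaja4 an unnamed isoform took 25.7% of 105 and 5.56% of 72 UMIs. Chaperonin genes did not differ by as much in any subunit, with 1.88 to 16.3 points for the isoform that differed most. Over the 40 members, 1.61% of shallow and 0.677% of deep UMIs lay on unnamed isoforms with an intronic 3′ end, against 3.38% and 1.20% over all 3230 genes compared. Reference-named isoforms took 20.1% of shallow and 28.1% of deep UMIs of the members, against 41.6% and 47.4% over all genes. These shares pool UMIs over genes and so also depend on which genes hold the UMIs. Gene by gene, the median difference in the named share was −0.37 points for members and 0 for all genes. The named share was lower in shallow barcodes for 22 of the 40 members (55%, against 41.2% of all genes). It was higher for 5 members, and for 786 of all 3230 genes. For intronic ends the median difference was 0 for both.

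**Figure D5:**
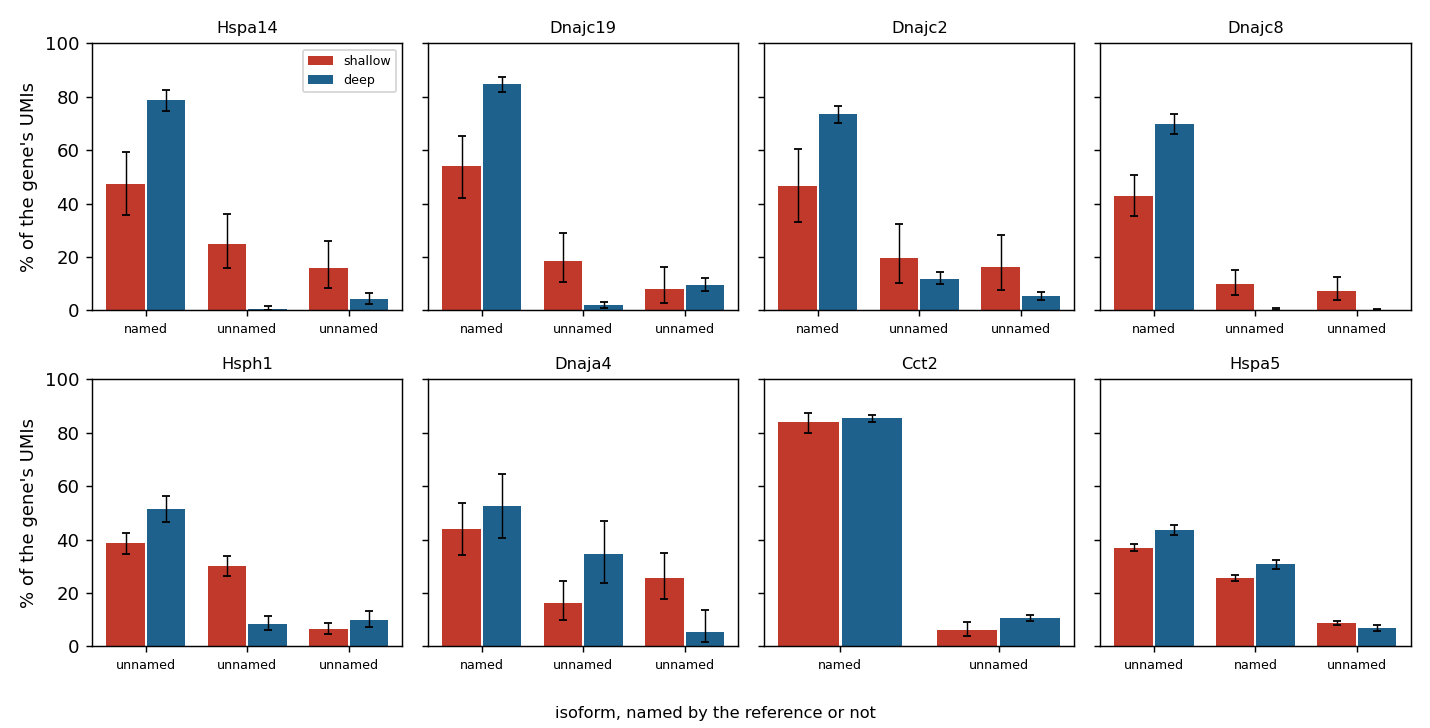
Share of a gene's long-read UMIs on its 3 most used isoforms (fewer where the gene has fewer) in shallow and deep barcodes of the 10% aliquot, with exact 95% intervals, for the 6 members that differed by at least 20 points and for Cct2 and Hspa5. In Hspa14, Dnajc19, Dnajc2 and Dnajc8 the named isoform is the lower one in shallow barcodes, while Cct2 keeps its named isoform at 83.9% and 85.5%.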

How the data were processed

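The authors captured MuSCs with the 10x 3′ v2 kit, sequenced both aliquots by Illumina and the 10% aliquot by nanopore, and deposited UMI counts per gene made with scPipe and per isoform made with FLAMES, without normalization. The submitters' processing notes name Cell Ranger 1.3 and minimap2 2.17 and the build GRCm38.p6. Long reads covering little of a transcript were dropped by the authors. Symbols and positions came from Gencode vM21. Counts of the barcodes of a group were summed and given as CPM, with no doublet caller run and no filter but those on UMIs. Per-million values make a gene lower when others rise. Ratios have exact binomial intervals, shares Clopper-Pearson intervals, both at 95%, from Python 3.11.15 with scipy 1.17.1, and functions were tested on simulated data. No test between groups was run, since 1 capture has no replicates. Named genes are the inducible and constitutive lists, members at least 2-fold in both aliquots, members with an isoform shift, the 10 genes most like Hspa1a and co-chaperones at least 2-fold in both aliquots (some of these, and a marker list, are not reported here), with other members named after their values were seen. The members, lists and rules were chosen with earlier results of these data known. Alternatives changed the depth limits, fold, UMI minimum, total, centring and barcodes kept. Where a 3′ end lies was read from Gencode vM21 exons. The lists of cell type markers were also summed over endothelial, mural, myofibre and erythroid genes.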

Additional observations from a re-analysis of the deposited data

Results flagged for a closer look

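Hsp90aa1 was the 1 member of the inducible list whose ratio of shallow over deep barcodes pointed in opposite directions in the separate sets. The CPM ratio was 1.18 in the 10% aliquot and 0.872 in the separate 90% barcodes, on 863 and 3343 and on 3161 and 13312 UMIs. Long reads of the 10% aliquot gave 1.12. The difference between the aliquots was not tested, since there were no replicates.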

How the results depend on the processing

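The direction of the split between inducible and constitutive members held under every alternative that gave a value. The difference of their median log2 ratios, 2.12 and 2.40 in the 10% and 90% aliquots, fell to 1.48 and 1.47 when, for each gene, the 5% of barcodes with the highest CPM were left out, an alternative chosen after seeing the data, and otherwise lay between 1.89 and 2.67 and between 2.02 and 2.56. That alternative takes most from genes seen in few shallow barcodes by its construction, moving the median log2 ratio of all genes in the 10% aliquot from −0.37 to −1.37. Under it the members lower in shallow barcodes went from 15 to 28 in the 10% and from 20 to 42 in the 90% aliquot. These were 50.9% and 61.8% of members, against 56.5% and 72.6% of all genes. Higher members in the 90% aliquot went from 14 to 8 (11.8%, against 6.5% of all genes). The median log2 ratio of inducible members became 0.20 and −0.0101, so that as a list they were no longer higher in the 90% aliquot. The median of all genes in that aliquot had no UMI left in shallow barcodes under this alternative. The inducible median thus still stood above that of all genes in both aliquots. In the 10% aliquot Hspa1a and Hspa1b stood at log2 ratios of 0.999 and 0.162 under it. In the 90% aliquot the log2 ratio of Hspa1a changed from 2.25 to −0.0101 and that of Hspa1b from 1.16 to −0.9998. The others kept their direction: of 510 values of the named genes past 2-fold, these 2 changed it. With the log2 ratios centred on the median of all genes, 15 members were higher and 10 lower in the 10% aliquot (27.3% and 18.2%, against 20.7% and 23.8%). In the 90% aliquot 18 and 15 were (26.5% and 22.1%, against 22.5% and 23.4%). At 1.5-fold 16 members were higher and 25 lower in the 10% aliquot (29.1% and 45.5%, against 21.7% and 43.4% of all genes). At 3-fold 8 were higher and 5 lower there (14.5% and 9.09%, against 8.19% and 19.5%), and 11 and 12 in the 90% aliquot (16.2% and 17.6%, against 1309 and 2280 of 12480 genes). Leaving out the barcodes in both gene tables left no barcode in the 10% aliquot, so no value exists there, and kept 28 of 33 named genes in the 90% aliquot within their counting interval. Over all settings 162 of 688 values of named genes fell outside it, among them 53 of 66 under centring, 38 of 61 under the removal of the 5% and 28 of 66 without barcodes holding other cell types' UMIs. Barcodes with 2 or more UMIs of another cell type (483 shallow and 322 deep in the 90% aliquot), left out after seeing the data, gave 16 members higher and 23 lower there. These were 25% and 35.9% of members, against 15.7% and 34.4% of all genes. Of 40 members, 6 had an isoform shift. The number was 16 at 10 points (40%, against 54.1% of all genes), 2 at 30 points (5%, against 5.70%), 2 of 27 with 100 UMIs in each group (7.41%, against 10.8%) and 0 of 2 with reference-named isoforms alone (against 11.7%). With the longer heat shock element 15.4% of the promoters of inducible members matched instead of 53.8%. No paired analysis was possible because the groups are barcodes of 1 capture and no result comes from a test. Depth limits thin genes most, since 10 of 78 members had under 50 UMIs in the 90% aliquot.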

Other observations

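Markers of other cell types not given above were low in both groups. In the separate 90% barcodes the 5 endothelial genes summed to 10.1 CPM in shallow and 3.19 CPM in deep barcodes, the 4 mural genes to 7.75 and 5.20 CPM, the 6 myofibre genes to 90.0 and 55.9 CPM and the 3 erythroid genes to 1.19 and 1.79 CPM. In the 10% aliquot these were at 9.87 and 4.12, 1.79 and 0.588, 61.0 and 36.7, and 0 and 1.76 CPM. The heat shock cochaperones Chordc1 and Stip1, named after their values were seen, differed little. Chordc1, whose promoter holds the longer heat shock element, was at 35.8 and 43.6 CPM and Stip1 at 69.7 and 77.4 CPM in the separate 90% barcodes. In deep separate 90% barcodes the summed CPM of the inducible and the chaperonin genes correlated across barcodes at a Spearman rho of 0.375 (399 barcodes, sharing library and depth), and in shallow ones at −0.04 (1000 barcodes). The inducible sum holds much Hsp90aa1, with medians of 1059 CPM for the sum and 621 CPM for Hsp90aa1 in these deep barcodes. Hspa1a alone correlated with single chaperonin genes there at −0.038 (Cct4) to −0.177 (Cct2).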
